A study of Homo sapiens with 9 samples.

Results

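The genes described here are 10 interferon-induced genes whose symbols carry the IFI or ISG prefix or that act with ISG15: IFI6, IFI27, IFI35, IFI44, IFI44L, IFI16, IFIH1, ISG15, ISG20 and HERC5. They are 10 of the 58735 genes in the deposited count table, were matched by gene symbol, and were all among the 16928 genes with enough counts to be tested. They were picked on their values in these same libraries, because IFI6 and IFI44L were among the genes with the largest rises after MPZL3 knockdown, so their differences from the control are given as a description, without p-values. OVCAR4, a human high-grade serous ovarian cancer line, was transduced with lentivirus carrying a scrambled hairpin (scr control, genotype WT in the labels) or 1 of 2 hairpins against MPZL3, a predicted cell adhesion molecule (shMPZL3 #1 and shMPZL3 #2, both labelled MPZL3 knock-down). All cells, the controls included, carried a vector and were kept under puromycin for 3 days before RNA extraction, and each of the 3 groups had 3 biological replicates, sequenced as poly(A) RNA without strand information. There was no group without vector, so values are relative to transduced, drug-selected cells of a single line.

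Type I and type III interferons bind receptors on the cell surface, and JAK kinases there activate a transcription factor complex that includes IRF9 and binds the interferon-stimulated response element (ISRE) in the promoters of responsive genes. Interferon gamma acts through another promoter element, the gamma-activated site (GAS). The products of the genes that respond include RNA and DNA sensors, nucleases, membrane proteins and the ISG15 conjugation system, and cells make them in response to viral nucleic acids. Several of the response genes also encode the sensors and signalling proteins of the pathway itself.

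The promoters were searched for the ISRE core, written as GAAA, 2 bases of any kind and GAAA, on either strand. Sequence was not used to choose the genes. They were chosen as interferon-induced genes, however, so a high share with this core is no independent finding about these data. Each RefSeq window (GRCh38.p14) held 250 bases before and 50 bases after a transcription start. The core was found in 8 of the 10 genes (80%), against 1195 of 27305 genes with a window (4.38%), and against 25 of 33 other interferon-stimulated genes with a window (75.8%). In the other lists described below it was found in 4 of 9 interferon ligands, 2 of 8 sensors and adaptors and 2 of 13 relatives with a window. It was found in 0 of 10 receptor and JAK-STAT genes, 0 of 4 IRF factors and 0 of 4 ISG15 conjugation genes with a window. No match was found in the windows of IFI35 and IFI16. Each stretch shown runs from 25 bases before the first match to 25 bases after the last. It ends at the base before the start where that came first. The stretches are shown because they hold the sequence feature found in 8 of the 10 genes. They are written 5′ to 3′ on the strand of the gene, and capitals mark the matches, which read GAAA on the gene's strand and TTTC where the match lies on the opposite strand.
IFI6 (chr1:27672251-27672373, minus strand): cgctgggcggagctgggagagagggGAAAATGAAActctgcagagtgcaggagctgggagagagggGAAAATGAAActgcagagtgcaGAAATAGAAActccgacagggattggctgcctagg
IFI27 (chr14:94110603-94110675, plus strand): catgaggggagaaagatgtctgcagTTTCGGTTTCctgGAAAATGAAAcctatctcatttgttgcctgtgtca
IFI44 (chr1:78649746-78649788, plus strand): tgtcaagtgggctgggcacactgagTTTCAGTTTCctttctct
IFI44L (chr1:78620259-78620409, plus strand): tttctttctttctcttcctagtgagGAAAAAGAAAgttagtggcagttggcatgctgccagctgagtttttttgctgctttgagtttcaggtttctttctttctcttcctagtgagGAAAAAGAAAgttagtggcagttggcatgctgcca
IFIH1 (chr2:162318685-162318868, minus strand): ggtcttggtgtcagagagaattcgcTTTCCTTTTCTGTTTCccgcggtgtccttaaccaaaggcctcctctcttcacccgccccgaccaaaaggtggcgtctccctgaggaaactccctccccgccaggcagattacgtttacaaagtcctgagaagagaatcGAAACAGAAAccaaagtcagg
ISG15 (chr1:1013359-1013424, plus strand): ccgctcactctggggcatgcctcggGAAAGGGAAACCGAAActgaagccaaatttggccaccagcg
ISG20 (chr15:88638922-88638981, plus strand): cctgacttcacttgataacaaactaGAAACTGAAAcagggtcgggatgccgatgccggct
HERC5 (chr4:88456969-88457079, plus strand): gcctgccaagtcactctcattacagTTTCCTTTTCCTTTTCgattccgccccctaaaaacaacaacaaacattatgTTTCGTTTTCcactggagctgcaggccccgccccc

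IFI6, IFIH1 and HERC5 had 3 matches each, IFI27, IFI44L and ISG15 had 2, and IFI44 and ISG20 had 1. In ISG15, and in 1 pair each of IFIH1 and HERC5, 2 matches overlapped by 4 bases. The first 2 matches of IFI6 had the same 10 letters as each other, and so did both matches of IFI44L. Counted from the start, the matches lay between positions -187 (in the second window of IFI27) and -9 (in IFI44). The GAS core (TTC, 3 bases of any kind, GAA) was found in IFI27, where it overlapped both ISRE matches, and in IFI35, that is in 2 of 10 genes (20%) against 9.38% of all genes with a window. Of the other interferon-stimulated genes with a window, 12 of 33 (36.4%) held the GAS core. A match is a description of the letters, and binding of a factor was not measured.

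**Figure D1:**
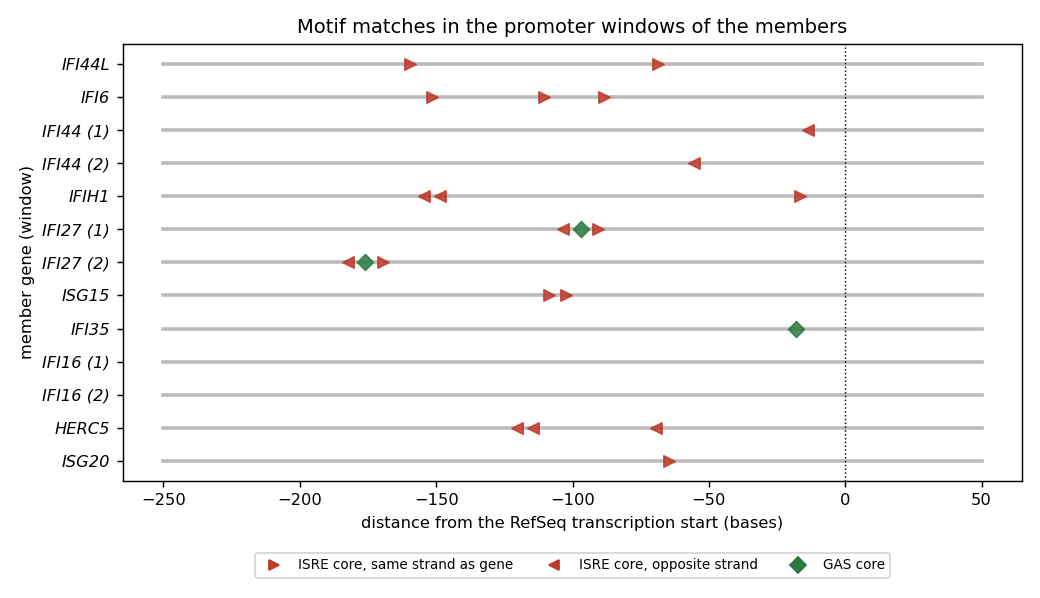
Matches to the ISRE core (red arrowheads, pointing right on the strand of the gene and left on the opposite strand) and to the GAS core (green diamonds) in each RefSeq promoter window of the 10 genes, with distance from the transcription start in bases on the x axis (genes with 2 windows have 2 lines). Red marks stand in all genes but IFI35 and IFI16, and all of them lie before the start.

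The libraries held 15040102 to 27835841 counts. MPZL3 had 403, 648 and 427 counts in the scr control, 130, 144 and 130 with shMPZL3 #1 and 281, 375 and 361 with shMPZL3 #2, and its normalized counts were 578 ± 38.5, 128 ± 12.9 and 312 ± 59.6 (mean ± SD, n = 3 each), so every knockdown library was below every control library. The 9 ovarian epithelial markers summed to 5540 to 5820 CPM (counts scaled to library size) in the scr control, 5850 to 6980 with shMPZL3 #1 and 5560 to 6990 with shMPZL3 #2, with WT1 at 13 counts or fewer in every library. With shMPZL3 #1, PAX8 (0.29 on the log2 scale) and KRT7 (0.35) were called higher and MUC16 lower (-0.61, SE 0.16, edgeR adjusted p = 0.00739). None of the 8 tested was called in knockdown against scr control or with shMPZL3 #2. The 9 leukocyte markers summed to 0.972 to 1.06 CPM in the control, 1.05 to 2.18 with shMPZL3 #1 and 1.83 to 2.91 with shMPZL3 #2, with CLEC4C at 0 throughout and CD14 the 1 called higher. The 6 fibroblast and endothelial markers summed to 13.5 to 13.9, 13.5 to 17.5 and 22.6 to 28.1 CPM, with DCN at 0 throughout. LUM was called higher in knockdown against scr control, and LUM and the endothelial gene CDH5 (1.05 on the log2 scale, SE 0.21, edgeR adjusted p = 0.00282) were called higher with shMPZL3 #2. CDH5 was also higher with shMPZL3 #2 than with shMPZL3 #1, by 1.39 (SE 0.21, edgeR adjusted p = 0.000395). The part of those cell types in the values below was not tested. In these bulk samples, more cells that express a gene and more RNA in each cell cannot be told apart.

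All 10 genes were higher in every knockdown library than in every scr control library. Together they took 0.00959%, 0.0136% and 0.0166% of the counts in the 3 control libraries, 0.0447%, 0.0638% and 0.121% with shMPZL3 #1, and 0.0975%, 0.105% and 0.0974% with shMPZL3 #2. The values below are normalized counts, which are counts divided by the library size after TMM scaling and multiplied by the mean scaled library size, in the order of replicates 1, 2 and 3.

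**Figure D2:**
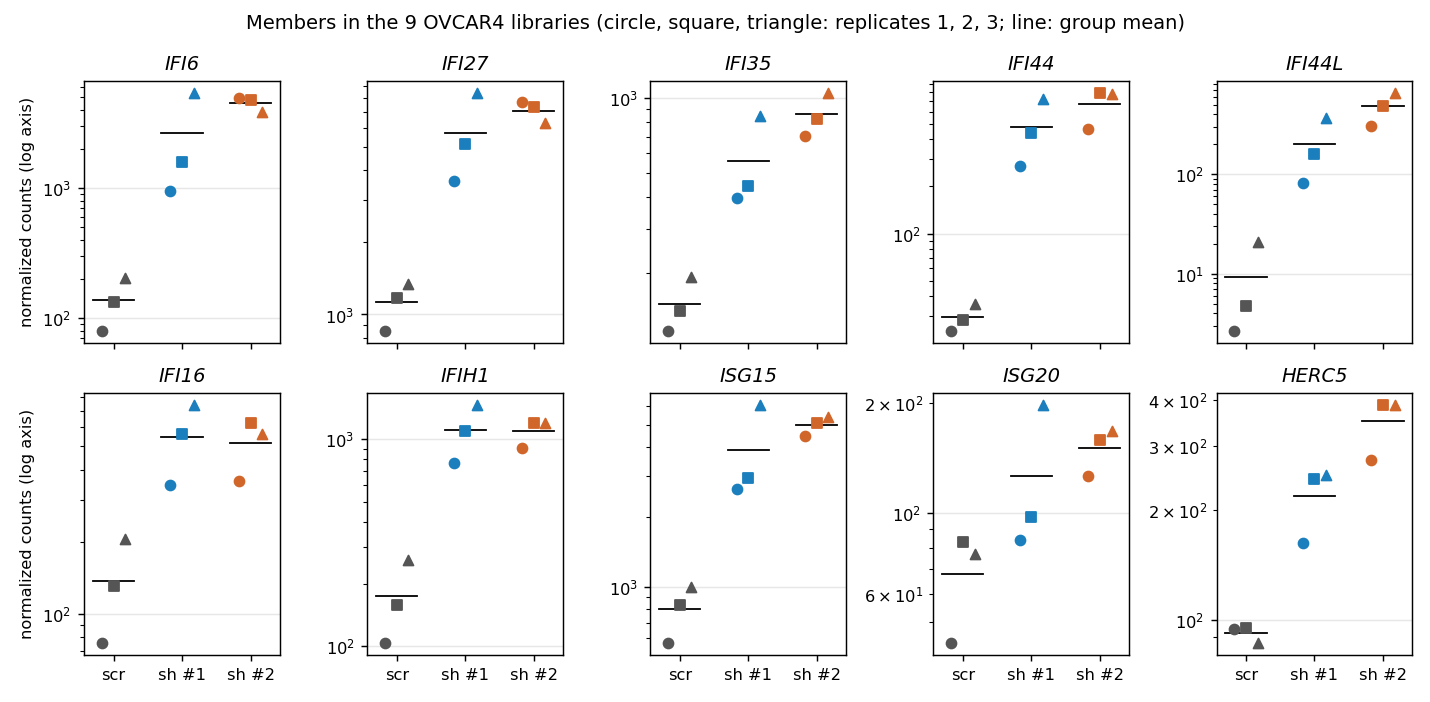
Normalized counts of the 10 genes in the 9 OVCAR4 libraries on a log axis that differs between panels, with circles, squares and triangles for replicates 1, 2 and 3 and a line at each group mean. In each panel the 6 knockdown libraries lie above the 3 scr control libraries, and the triangle is the highest point of shMPZL3 #1.

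IFI6 and IFI27 encode small hydrophobic membrane proteins of the same family, and IFI6 is known to restrain cell death and virus replication at internal membranes. IFI6 had 79.8, 134 and 203.5 normalized counts in the scr control, 960.3, 1589 and 5418 with shMPZL3 #1, and 4914, 4776 and 3891 with shMPZL3 #2. The lowest knockdown library was above the highest control library, and replicate 3 of shMPZL3 #1 was higher than all libraries of shMPZL3 #2. The group means were 139 ± 62.0, 2656 ± 2413 and 4527 ± 555 (SD, n = 3), which is 19.1-fold and 32.5-fold above the control. Without replicate 3 of shMPZL3 #1, the log2 fold change of IFI6 with that hairpin went from 4.26 to 3.20. IFI27 had 854, 1174 and 1347 normalized counts in the control, 3626, 5182 and 8437 with shMPZL3 #1, and 7740, 7334 and 6292 with shMPZL3 #2. It thus followed the same order of libraries as IFI6 in each group, with smaller mean ratios of 5.11-fold and 6.33-fold. IFI6 overlaps an antisense gene, AL445490.1, which cannot be told apart without strand and had 27 counts in all 9 libraries together against 23466 for IFI6.

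IFI44 and IFI44L encode related cytoplasmic proteins and are neighbours on chromosome 1 (GRCh38), IFI44L from 78619922 to 78646145 and IFI44 from 78649796 to 78664078, both on the plus strand. IFI44L had the lowest starting level of the set, with 2, 5 and 15 counts, or 2.66, 4.72 and 20.6 normalized counts, in the scr control. It had 80.6, 159 and 369 normalized counts with shMPZL3 #1 and 303.7, 487 and 655 with shMPZL3 #2. The groups did not overlap with the control, and the ratios of 21.7-fold and 51.6-fold rest on few control counts. The control itself spanned 7.76-fold from replicate 1 to replicate 3, and without control replicate 3 the log2 fold change in knockdown against scr control went from 5.26 to 6.43. Without replicate 3 of shMPZL3 #1, that of IFI44L with shMPZL3 #1 went from 4.51 to 3.75. IFI44 had 23.9, 28.3 and 35.8 normalized counts in the control, 270, 441 and 725 with shMPZL3 #1, and 464, 789 and 774 with shMPZL3 #2. The means were 16.3-fold and 23.0-fold above the control, whose libraries spanned 1.49-fold.

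IFIH1 encodes MDA5, a cytoplasmic sensor of long double-stranded RNA, and IFI16 encodes a nuclear DNA-binding protein of the PYHIN family that acts as a DNA sensor. IFIH1 had 104, 158.5 and 261 normalized counts in the scr control, 765, 1093 and 1462 with shMPZL3 #1, and 904, 1201 and 1192 with shMPZL3 #2. The means of the knockdown groups, 1107 ± 349 and 1099 ± 169 (SD, n = 3), were close to each other and 6.34-fold and 6.30-fold above the control. IFI16 had 75.8, 131 and 205 normalized counts in the control, 344, 560 and 743 with shMPZL3 #1, and 358, 626 and 561 with shMPZL3 #2. It was 4.001-fold and 3.75-fold above the control, and with IFIH1 it was 1 of 2 genes with the higher mean in shMPZL3 #1.

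ISG15 encodes a ubiquitin-like protein that is joined to other proteins or released from the cell, and HERC5 encodes the main ligase that joins it to its targets in human cells. ISG15 had 572, 833 and 998 normalized counts in the scr control, 2638, 2956 and 6086 with shMPZL3 #1, and 4462, 5115 and 5405 with shMPZL3 #2. The means were 4.86-fold and 6.24-fold above the control, and as with IFI6 the highest single library was replicate 3 of shMPZL3 #1. The overlapping genes AL645608.1 and AL645608.3, on the other strand, had 15 and 3 counts over all libraries against 30973 for ISG15. HERC5 had 94.4, 95.3 and 86.6 normalized counts in the control, 163, 243 and 249.7 with shMPZL3 #1, and 274, 387.5 and 387 with shMPZL3 #2. Its groups did not overlap at all, its control libraries were the closest together of the 10 genes (SD of 0.07 in log2 CPM), and its mean ratios were 2.38-fold and 3.80-fold.

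IFI35 encodes a leucine zipper protein that binds the interferon-induced protein NMI, and ISG20 encodes an exonuclease that degrades RNA. IFI35 had 117, 140.5 and 192.5 normalized counts in the scr control, 396, 444 and 846.5 with shMPZL3 #1, and 703, 828 and 1048 with shMPZL3 #2. Its means were 3.75-fold and 5.73-fold above the control. ISG20 was the member with the smallest ratios, 1.86-fold and 2.22-fold, with 43.9, 83.0 and 77.0 normalized counts in the control, 84.2, 97.4 and 198 with shMPZL3 #1, and 126.5, 158 and 168 with shMPZL3 #2. Its highest control library, 83.0, was just below its lowest knockdown library, 84.2.

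In the edgeR quasi-likelihood fit of knockdown (6 libraries) against scr control (3 libraries), 10 of the 10 genes were called higher at an adjusted p under 0.05, where 9.36% of the 16928 tested genes were called higher. All 10 were also without overlap between the groups, against 11.8% of tested genes with every knockdown library above every control library. Because the genes were chosen by this contrast, nothing is read from these counts. Their log2 fold changes ran from 1.02 (SE 0.30) for ISG20 to 5.26 (SE 0.78) for IFI44L, with a median of 2.49 against 0.02 over all tested genes. By hairpin, 10 of 10 were called higher with shMPZL3 #1 (16.8% of all tested genes) and 10 of 10 with shMPZL3 #2 (9.36%), with medians of 2.32 and 2.65 on the log2 scale. The hairpin comparisons use the same 3 control libraries. ISG20 was the 1 gene that lost its call when single libraries were left out: this happened in knockdown against scr control without any 1 of the 3 control libraries, without replicate 3 of shMPZL3 #1 or without replicate 3 of shMPZL3 #2.

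**Figure D3:**
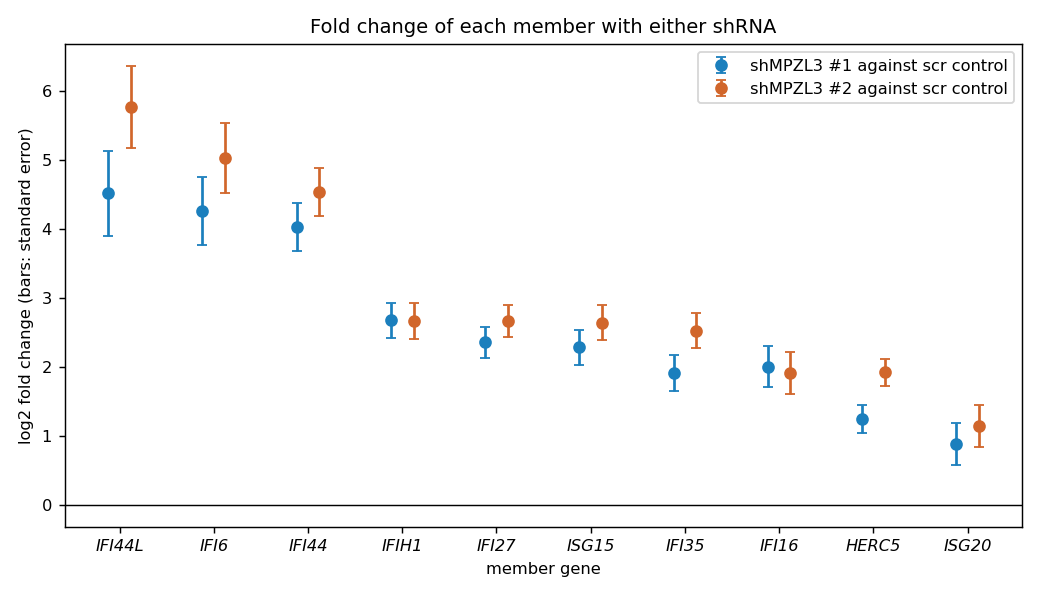
Log2 fold change of each gene with shMPZL3 #1 (blue) and shMPZL3 #2 (orange) against the shared scr control libraries, with bars for the standard error, ordered by the fold change in knockdown against scr control. IFI44L, IFI6 and IFI44 stand above 4 with either hairpin (3.75, 3.20 and 3.60 with shMPZL3 #1 when its replicate 3 is left out), and the other 7 genes lie between 0.88 and 2.67.

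The difference between the hairpins did not enter the choice of genes and was tested. HERC5 was higher with shMPZL3 #2 than with shMPZL3 #1 by 0.68 on the log2 scale (SE 0.18, 95% interval 0.29 to 1.07, edgeR adjusted p = 0.0187), in 3 of 3 libraries against 3 of 3, with a two-sided exact permutation p of 0.1, the smallest that 3 against 3 allows. IFI44L was higher by 1.25 (SE 0.40, 95% interval 0.42 to 2.09, edgeR adjusted p = 0.0415), although its groups overlapped and its exact permutation p was 0.2. These were 2 of the 10 genes, against 7.56% of tested genes called higher in shMPZL3 #2, and 1 of 10 had groups that did not overlap, against 15.4%. In this fit, which had no replicate block, the other 8 were not called: IFI35 at 0.61 (95% interval 0.13 to 1.10, edgeR adjusted p = 0.0838), IFI6 at 0.77 (interval -0.08 to 1.62) and IFI44 at 0.50 (interval -0.05 to 1.05) had intervals that reach a doubling or more, and ISG15 at 0.36 (interval -0.14 to 0.86), IFI27 at 0.31 (interval -0.15 to 0.76) and ISG20 at 0.26 (interval -0.34 to 0.85) had intervals that include both no difference and a rise. For IFIH1 (-0.01, interval -0.49 to 0.47) and IFI16 (-0.09, interval -0.67 to 0.49) the estimates were near 0.

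In sum 8 of 10 estimates were positive, with a median of 0.43 against 0.01 over all tested genes. MPZL3 itself was higher with shMPZL3 #2 than with shMPZL3 #1, by 1.28 on the log2 scale (SE 0.16, edgeR adjusted p = 5.72e-05). Those 8 genes, 2 of them called, had the higher estimate with this same hairpin. A relation between MPZL3 level and these genes was not tested, and hairpin and MPZL3 level cannot be told apart here. Single libraries decided the calls. Without replicate 3 of shMPZL3 #1, the highest library of that group for all 10 genes, 7 of 10 were called higher in shMPZL3 #2 (IFI6 by 1.83, edgeR adjusted p = 2e-04, and IFI44L by 2.02, edgeR adjusted p = 0.00232). Without replicate 1 of shMPZL3 #1, or replicate 2 or 3 of shMPZL3 #2, the count was 0 (edgeR adjusted p of 0.0582 to 0.186 for IFI44L and 0.0511 to 0.0893 for HERC5, with 2 or 3 members at an unadjusted p under 0.05), and without replicate 2 of shMPZL3 #1 it was 1.

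**Figure D4:**
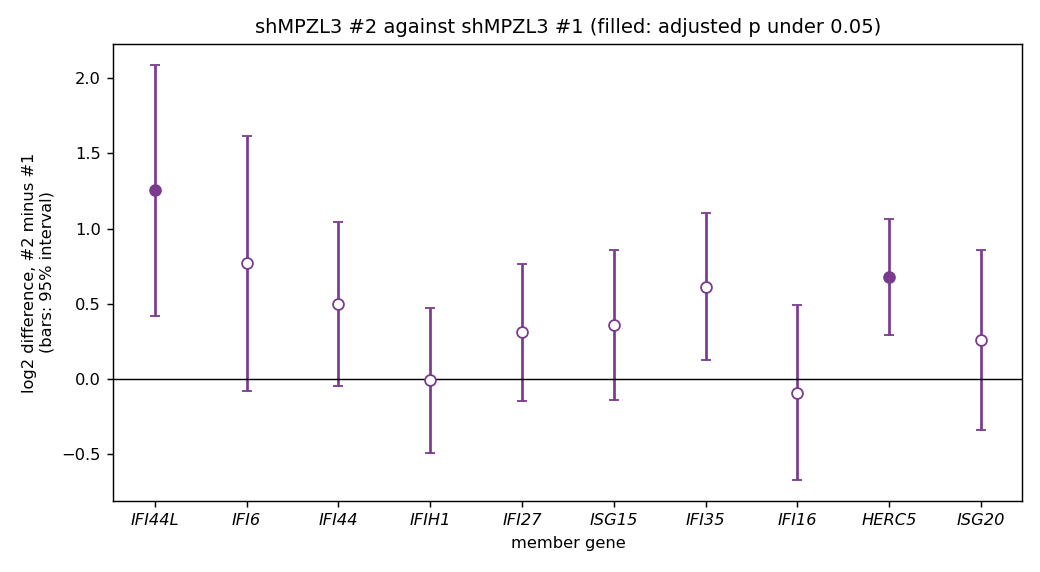
Log2 difference of shMPZL3 #2 minus shMPZL3 #1 for each gene with its 95% interval, filled where the edgeR adjusted p is under 0.05. Filled points are IFI44L (1.25) and HERC5 (0.68), while IFIH1 and IFI16 lie just below 0.

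The 10 genes also varied together between replicates of the same group, which the choice of genes did not use. In shMPZL3 #1, replicate 3 was the highest library for 10 of 10 genes and replicate 1 the lowest for 10 of 10. In the scr control, replicate 1 was the lowest for 9 and replicate 3 the highest for 8, and in shMPZL3 #2 replicate 1 was the lowest for 8. Averaged over the genes, the log2 CPM in replicates 1, 2 and 3 deviated from the control mean by -0.49, 0.01 and 0.48. The deviations from the group mean were -0.62, -0.10 and 0.72 in shMPZL3 #1, and -0.26, 0.12 and 0.14 in shMPZL3 #2. Over all tested genes the median deviation lay between -0.01 and 0.01 in every library, and TMM scaling holds it near 0. The deviations were correlated between genes, with a median Pearson r of 0.83 over 45 pairs, a lowest value of 0.40 and no negative pair. Their mean r was 0.789, and the mean over all pairs of tested genes was 0.0013. Positive and negative values cancel in that mean, so it does not show how large r usually is between 2 genes. These correlations share the 9 libraries and their depth and are descriptions. HERC5 was the member least like the others (mean r of 0.515).

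The median SD between replicates was 0.45 in the control, 0.63 in shMPZL3 #1 and 0.26 in shMPZL3 #2 on the log2 CPM scale, against 0.14, 0.21 and 0.19 over all tested genes. Thus 9, 10 and 7 of the 10 genes were above the median spread of all genes in the 3 groups, and shMPZL3 #2 was the group in which they were most even. Only 1, 2 and 0 of them were above the 95th percentile of the spread of all tested genes. The genes compared were not matched for count level, which also affects spread. IFI6 ran from 960.3 to 5418 normalized counts within shMPZL3 #1, a 5.64-fold range, and over a 1.26-fold range within shMPZL3 #2.

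**Figure D5:**
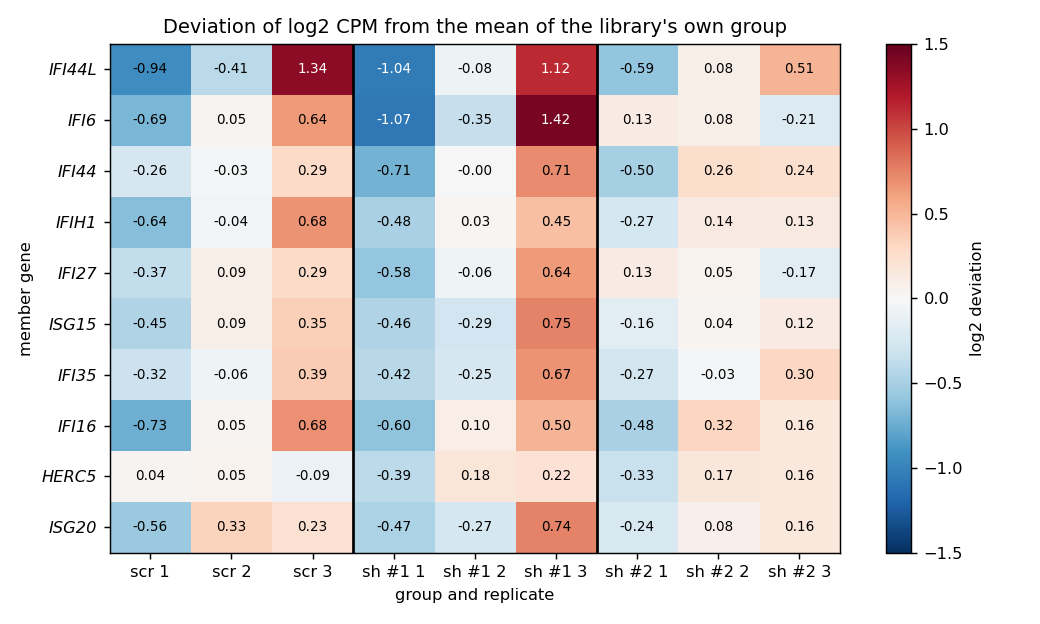
Deviation of log2 CPM from the mean of the library's own group, for each gene (rows) in each library (columns, grouped by scr control, shMPZL3 #1 and shMPZL3 #2), with red for above and blue for below the mean. The column of shMPZL3 #1 replicate 3 is red and that of replicate 1 is blue in all 10 genes, while shMPZL3 #2 is paler.

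Levels between genes were compared per kilobase, as CPM per kilobase of the gene length in the deposited table (RPKM). In the scr control ISG15 was highest at 41.4 ± 11.1 (SD, n = 3), followed by IFI27 at 13.2 ± 2.94, IFI6 at 7.83 ± 3.49, IFI35 at 3.70 ± 0.95, IFIH1 at 1.66 ± 0.76, IFI16 at 1.26 ± 0.60, HERC5 at 0.94 ± 0.05, IFI44 at 0.70 ± 0.14, ISG20 at 0.45 ± 0.14 and IFI44L at 0.04 ± 0.05. In this order the libraries of IFI27 and IFI6, IFI6 and IFI35, IFIH1 and IFI16, and IFI16 and HERC5 overlapped, and the other neighbours did not. With shMPZL3 #2 the order began with ISG15 at 258 ± 25 and IFI6 at 255 ± 31.2, which overlapped, and IFI27 at 83.6 ± 8.77 came next. IFI6 thus went from below IFI27 to above it. This order depends on the length used, since the deposited length joins all exons of all transcripts. With the length of the principal transcript (725 bases for IFI27 in place of 4147) IFI27 ranked first in all groups, at 75.6 ± 16.8 in the control and 478 ± 50.2 with shMPZL3 #2, above ISG15 at 54.9 ± 14.7 and 342 ± 33.1, and IFI6 came next after ISG15. The libraries of IFI27 and ISG15 overlapped by this measure in the control and with shMPZL3 #1. IFI44L had the lowest level in the control by either length.

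Other genes of the pathway were taken by role. The lists were drawn up with earlier results of these data known, and genes were named from them after their values were known. Their adjusted p-values in knockdown against scr control are therefore a description and not independent evidence. None of the 10 interferon ligand genes had enough counts to be tested, and the most counts in any library were 16 for IFNE, 1 for IFNB1 and 0 for IFNA1, IFNA2 and IFNG. Among the receptors and JAK-STAT genes, 4 of 12 were called in knockdown against scr control, all of them higher, where 9.36% of tested genes were called higher. IRF9, a subunit of the complex that binds the ISRE, was at 0.92 on the log2 scale (SE 0.49, edgeR adjusted p = 0.22), with 6 to 11 control counts. Of 7 tested IRF factors 3 were higher, with IRF7, the amplifier of interferon gene transcription, at 1.89 (SE 0.43, edgeR adjusted p = 0.0119) and IRF1 at 0.87 (SE 0.12, edgeR adjusted p = 0.000948).

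Of 6 further ISG15 conjugation genes 5 were called, all of them higher. They were the E1 enzyme gene UBA7, the E2 gene UBE2L6 (1.26, SE 0.23, edgeR adjusted p = 0.00368), the HERC5 relative HERC6 (1.77, SE 0.22, edgeR adjusted p = 0.000487), the ligase gene TRIM25 and the protease gene USP18, which removes ISG15. ARIH1 was at 0.02 (SE 0.09) and was not called. Among nucleic acid sensors and their adaptors, 4 of 10 tested genes were higher, led by TLR3 (1.87, SE 0.30, edgeR adjusted p = 0.00174), an endosomal sensor of double-stranded RNA, and DHX58 (1.39, SE 0.41, edgeR adjusted p = 0.0355), a relative of IFIH1. Between the hairpins TLR3 went the other way from HERC5 and IFI44L, at -0.77 (SE 0.20, edgeR adjusted p = 0.0154), and IRF7 went with them, at 1.24 (SE 0.26, edgeR adjusted p = 0.00377). IRF8 was lower with shMPZL3 #2, by -1.385 against shMPZL3 #1 (edgeR adjusted p = 2.2e-05) and by -1.315 against scr control. With shMPZL3 #2 against shMPZL3 #1, 2 of the 10 sensor and adaptor genes were called higher and 2 lower. Of 7 IRF factors 1 was called higher and 1 lower, and of 39 other interferon-stimulated genes 7 were called higher and 2 lower.

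Of 39 other interferon-stimulated genes tested, 36 were called, all of them higher, with a median log2 fold change of 2.06. OAS2 (5.54, SE 0.90, edgeR adjusted p = 0.00194) and OAS1 (5.04, SE 0.70, edgeR adjusted p = 0.000824), which make the 2-5A messenger that activates RNase L, had the largest changes. These rest on few control counts, 1 to 14 for OAS2 and 3 to 18 for OAS1. MX2, IFITM2 and TNFSF10 were not called in knockdown against scr control. TNFSF10 was called higher with shMPZL3 #1 (1.34, SE 0.21, edgeR adjusted p = 0.000208) but not with shMPZL3 #2 (0.35, SE 0.22). MX2 and IFITM2 were called with neither hairpin. Of 9 tested relatives of the members by sequence or name 2 were called higher, HERC6 (above) and IFI27L1 (0.85, SE 0.18, edgeR adjusted p = 0.00737), and the median was 0.05.

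Over the 9 libraries, the non-members with log2 CPM most like the mean of the 10 genes, of 11824 protein-coding genes, included DYNLL2, PARP12, SLC28A3 and HERC6 (Pearson r of 0.993 to 0.994, a value that reflects the step between control and knockdown). By deviations from the group means, which do not hold that step, the most alike were TNFRSF10B, FOXQ1, PSORS1C1, TRIM25 and OAS2 (r of 0.977 to 0.986). The latter include FOXQ1, whose log2 fold change in knockdown against scr control was 0.07 (-0.46 with shMPZL3 #1 and 0.46 with shMPZL3 #2). For OAS2 the log2 fold change was 5.54 (4.735 with shMPZL3 #1 and 6.058 with shMPZL3 #2).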

How the data were processed

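RNA of 9 OVCAR4 cultures was read as poly(A)-selected, non-directional libraries on the Illumina platform. The authors aligned reads to the human genome and counted them per gene, and the submitters' processing notes name HISAT2 2.0.5, featureCounts 1.5.0-p3 and hg38. The raw counts deposited for each gene and library were used as they are, and 0 columns of other samples were present. The file also gives gene lengths. Groups came from the sample labels. Replicates are biological per the study's methods.

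Genes passing edgeR's filterByExpr (16928) were normalized by TMM and fitted with edgeR 4.0.16 (quasi-likelihood test, R 4.3.3), with Benjamini-Hochberg adjustment over all of them and calls at an adjusted p under 0.05. Knockdown against scr control used 2 groups, as the study did, and the other comparisons used 3 groups with a shared spread. Log2 CPM used a prior count of 2. The code was tested on simulated data. Gene identifiers in the table all matched GENCODE release 29, which gave transcript lengths, and promoter windows came from RefSeq. Among the members, the count of reads per gene limits precision most for IFI44L, with 2 to 15 control counts. Alternatives were DESeq2 1.42.0, other normalizations, other filters, a replicate block, a fold threshold and leaving out each library, and the principal transcript length, which was chosen after seeing the data.

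The members, the gene lists and the tests were chosen with earlier results of these data known. Genes named outside the members were, per list, the 2 tested genes with the largest absolute log2 fold change in knockdown against scr control, the 5 most alike by levels, the 5 most alike by deviations, and MPZL3, of which some are not reported here. The remaining names (uncalled genes, markers, ligands, other conjugation genes) were added after their values were seen. Replicate numbers were not used as pairs, since not every same-numbered pair of libraries had a correlation of deviations over 0.1 (the closing section gives the check). No pair of replicates agreed within sampling noise.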

Additional observations from a re-analysis of the deposited data

Results flagged for a closer look

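2 genes differed between the hairpins by a test of the difference itself. IFI44L was higher with shMPZL3 #2 than with shMPZL3 #1 by 1.25 on the log2 scale (edgeR adjusted p = 0.0415), in all 3 libraries against the group mean of shMPZL3 #1 but with overlapping groups. HERC5 was higher by 0.679 (edgeR adjusted p = 0.0187), with every shMPZL3 #2 library above every shMPZL3 #1 library. The gap of the highest or lowest of the 6 knockdown libraries did not pass Dixon's critical value of 0.625 for any of the 10 genes.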

How the results depend on the processing

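Against scr control the count of members called was 9 or 10 of 10 under every alternative run, and every member kept its direction. Under a minimum of 10 counts in every library IFI44L was not tested, which left 9 of 9. Leaving out single libraries gave medians from 2.31 to 2.65 in knockdown, from 1.89 to 2.57 in shMPZL3 #1 and from 2.42 to 2.81 in shMPZL3 #2. Between the hairpins the count of 2 called members became 1 with DESeq2, 1 with a minimum of 10 counts and 1 with a log2 fold change of at least 1 required, and 6 without a low count filter, where the estimated prior degrees of freedom were infinite (11 with the filter), so that each gene took the trended spread. It ran from 0 to 7 when single libraries were left out, while the estimate ran from -0.35 to 0.19 for IFI16 and from -0.23 to 0.24 for IFIH1. Over all alternatives the adjusted p ran from 5.65e-10 to 0.527 for IFI6, from 7.76e-11 to 0.301 for IFI44L and from 0.00227 to 0.0893 for HERC5 (edgeR or DESeq2). With replicate number as a block it was 6, with IFI6, IFI35, IFI44 and ISG15 added, and the block changed no other count of calls. IFIH1 then turned to 0.031 under the replicate block. Same-numbered libraries of different groups had correlations of deviations from -0.0014 to 0.22 (0.14, 0.22 and 0.097 between the hairpins), and 8 of 9 libraries correlated best with their own number, a hint from the data and not the design. Without replicate 3 of shMPZL3 #1, IFI16 turned to 0.19 and IFIH1 to 0.24, and without replicate 1 of shMPZL3 #2 they turned to 0.10 and 0.10. The cause of these turns was not tested, and the edgeR adjusted p of those 5 values was 0.568 to 0.89. Levels per kilobase moved with the length used, in 22 of 30 gene and group values by more than 1 SD. Among the members, depth limits mainly IFI44L in the control.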
